A study of Arabidopsis thaliana with 8 samples.

Results

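The chloroplast genome of Arabidopsis thaliana encodes the core subunits of the photosynthetic complexes and of the chloroplast NADH dehydrogenase-like (NDH) complex, and 43 of these genes were followed here over 8 arrays. They are the genes on the chloroplast genome with a symbol starting in psa, psb, pet, atp, ndh or rbc and a probe set, the group of short probes that reports 1 transcript, that is annotated to that gene and no other. In all, 13356 genes of the table were named by such a probe set. The 43 comprise 15 genes of photosystem II, 5 of photosystem I, 6 of the cytochrome b6f complex, 6 of the ATP synthase, 10 of the NDH complex and rbcL of Rubisco. The gene ndhB is not among them, since its probe set is annotated to both of its copies.

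The plants were Col-1, taken as whole shoots with 4 rosette leaves, 6 h into a day of 16 h of light, from agar plates. Total RNA was labelled with biotin and measured on ATH1 arrays. There were 8 spike mixes, or sets of added RNAs, with 1 array for each, namely mix 1 to mix 7 and the reference. The series was set up to compare array platforms, and the labels name no other treatment and no difference in genotype between arrays. They do not say whether the arrays carried separate RNA extracts or pooled plants, so the spread over arrays may be technical. The same holds for the co-variation of gene pairs, which is what the p-values given here test. The sources used here do not give the labelling primer.

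Photosystem II splits water and passes electrons through the cytochrome b6f complex to photosystem I, and the ATP synthase uses the proton gradient that this builds. The NDH complex returns electrons from ferredoxin to the plastoquinone pool in cyclic electron flow, and Rubisco fixes carbon dioxide. Most of these genes are transcribed together with their neighbours as transcription units, which resemble the operons of bacteria, by a plastid-encoded RNA polymerase. The long transcripts are then cut, spliced, edited and trimmed by nuclear-encoded proteins, so that genes of 1 unit can end with different amounts of RNA. In a whole shoot, fewer green cells and less plastid RNA per cell cannot be told apart.

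The values are MAS5 signals, linear intensities without a log. Between 73.6% and 77.0% of the probe sets of an array lay above the 25th percentile of the table, 12.9, which was used as a floor before log2 was taken. All 43 genes were above it on all 8 arrays, so the floor set none of their values. Of the 12 genes listed as shoot markers, 5 were measured, with a summed signal of 13005 to 17310 per array. Of 6 root markers, 3 were measured, with sums of 890.2 to 1100 that came mostly from PYK10 (999 ± 76.1, SD, n = 8 arrays). Mean signals of the root hair expansins were 21.0 for EXPA7 and 24.6 for EXPA18. No listed flower or seed marker had a named probe set.

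The mean signals of the 43 genes ran from 34.2 for ndhF to 3764 for atpB. A probe set's signal depends on its own probes, so these signals are given per gene and do not order the transcripts by amount. The mean reached the table's median of 42.5 for 42 genes, all but ndhF. Of the 43, 35 lay among the bright probe sets, defined as the 2242 native ones with a mean of 292 or more, and the others were petG, ndhH, petN, ndhG, atpI, psbN, petD and ndhF. From the lowest to the highest array the signals differed by between 1.15-fold (psbH) and 3.03-fold (ndhF), with a median of 1.40-fold. A range of at least 1.5-fold was found for 19 of the 43 genes (44.2%), against a background of 23.6% of the native probe sets at or above the median signal and 6.11% of the bright ones. The 19 include genes outside the bright ones, such as ndhF, petN (1.75-fold) and petD (1.70-fold). The median range was 1.42-fold for 26 other chloroplast-encoded genes and 1.38-fold for 15 nuclear genes listed by symbol for the same complexes. It was 1.34-fold for the background and 1.23-fold for the bright probe sets. Native probe sets are those that are no control and span less than 16-fold over the arrays.

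**Figure D1:**
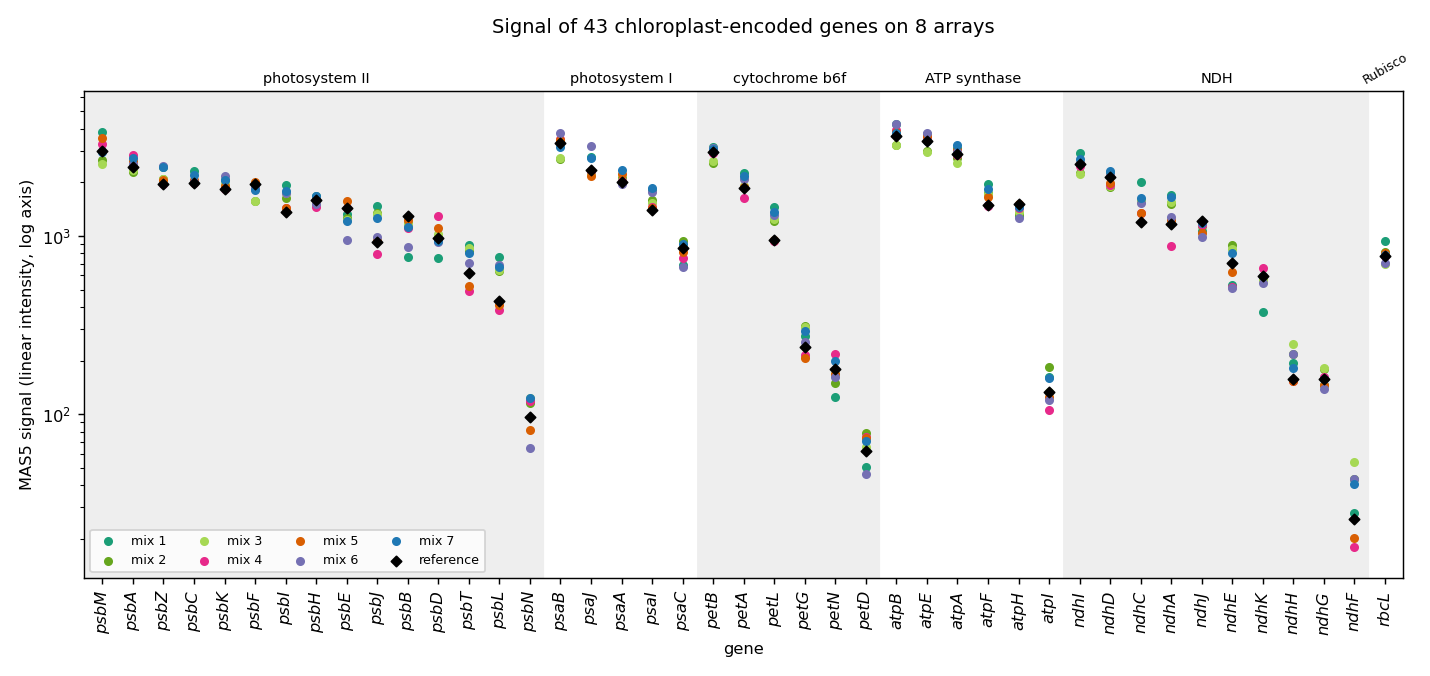
MAS5 signal (log axis) of each of the 43 genes, grouped by complex, with 1 point for each of the 8 arrays (circles for mix 1 to mix 7, a black diamond for the reference). Points of a gene lie close together for psbH and psbC and far apart for ndhF, which spans 17.9 to 54.3.

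In photosystem II, the reaction centre gene psbA, which encodes the D1 protein, had a signal of 2540 ± 190 (SD, n = 8 arrays), from 2282 in mix 2 to 2843 in mix 4. The D2 gene psbD had 1001 ± 154, and the genes of the inner antenna proteins, psbB for CP47 and psbC for CP43, had 1090 ± 183 and 2068 ± 119. The core genes therefore differed in how steady they were, from an SD of log2 signal of 0.08 for psbC to 0.27 for psbB. The signal of psbB was 762, 1181, 1171, 1102, 1232, 864 and 1118 in mixes 1 to 7 and 1292 with the reference mix. It was low in mix 1 and mix 6 and highest on the reference array, with log2 ratios of -0.76 in mix 1 and of -0.58 in mix 6. The gene psbD was also lowest in mix 1, at 754, and highest in mix 4, at 1288.

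The genes psbE and psbF encode the alpha and beta subunits of cytochrome b559. The signal of psbE was 1320, 1260.5, 1231, 1437, 1562, 953 and 1214 in mixes 1 to 7 and 1439 with the reference mix (mean 1302 ± 186). It stood lowest in mix 6, with a log2 ratio of -0.59, and psbF did not share this low value, at 1816 ± 163 over the arrays and 1870.0 in mix 6. The lowest signals of psbF, 1576 and 1568, were those of mix 2 and mix 3.

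The remaining genes of photosystem II encode small membrane subunits, except psbN, which encodes an assembly factor and lies on the strand opposite to psbT and psbH. The widest log2 spread among the photosystem II genes was that of psbL, with an SD of 0.39. Its signal was 763, 635, 641, 385, 409.5, 688 and 670.1 in mixes 1 to 7 and 432 with the reference mix (mean 578 ± 146). Mixes 4 and 5 and the reference formed a low set of arrays, and the other 5 arrays all had 635 or more. The same 3 arrays were the lowest for psbT (715 ± 153), psbJ (1130 ± 245), psbI (1628 ± 201) and psbZ (2181 ± 228). In psbT the 3 arrays had 494, 526.5 and 619.9, and its other arrays had 709 to 890.2. For psbM, by contrast, mix 2 and mix 3 were lowest. The signal of psbM was 3816, 2664, 2521, 3294, 3531, 2985 and 2947 in mixes 1 to 7 and 2999.5 with the reference mix (mean 3095 ± 432), so that mix 1 was 1.51-fold above mix 3. The signal of psbN was 119.9, 116, 123.5, 119, 81.8, 65.0 and 123 in mixes 1 to 7 and 96.1 with the reference mix (mean 106 ± 22.1). It was dim and low in mixes 5 and 6. The small subunit genes psbH, at 1577 ± 81.6, and psbK, at 1961 ± 122, had ranges of 1.15-fold and 1.17-fold.

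In photosystem I, psaA and psaB encode the pair of large proteins that carry the reaction centre. The gene psaA had 2092 ± 131, with a range of 1.20-fold. The signal of psaB was 3423, 2688, 2738, 3498, 3453, 3768 and 3132 in mixes 1 to 7 and 3312.5 with the reference mix (mean 3252 ± 378). Mix 2 and mix 3 were its lowest arrays and mix 6 its highest, an order that psaA did not have. The gene psaC encodes the subunit that holds the terminal iron-sulfur clusters. Its signal was 684, 937, 863, 749, 812, 669.7 and 904 in mixes 1 to 7 and 859 with the reference mix (mean 809.6 ± 99.4), low in mix 1 and mix 6. For the small subunit gene psaJ the signal was 2763, 2276, 2232, 2321, 2169, 3184 and 2728 in mixes 1 to 7 and 2342 with the reference mix (mean 2502 ± 354), and mix 6 stood highest. The other small subunit gene, psaI, had 1608 ± 185.

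In the cytochrome b6f complex, petA encodes cytochrome f, petB cytochrome b6 and petD subunit IV. The signal of petB was 3137, 2556, 2624, 2932, 2992, 3115 and 3086 in mixes 1 to 7 and 2949 with the reference mix (mean 2924 ± 220.0). It was lowest in mix 2 and mix 3, and its 8 values lay within 1.23-fold. The probe set of petD, the next gene of the same unit, was dim, with 50.6, 79.0, 65.1, 74.6, 73.9, 46.4 and 70.4 in mixes 1 to 7 and 62.0 with the reference mix (mean 65.2 ± 11.7). Its low arrays were mix 1 and mix 6. The gene petA had 1956 ± 203. Of the small subunit genes, petL had 1176 ± 207, petG 263 ± 40.6 and petN 171 ± 28.6. Both petL and petG were lowest on the arrays of mix 4, mix 5 and the reference, whereas petN was lowest in mix 1, at 124.5, and highest in mix 4, at 218.

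The genes atpA, atpB and atpE encode the alpha, beta and epsilon subunits of the catalytic part of the ATP synthase, and atpF, atpH and atpI encode membrane subunits, atpH that of the ring. The signal of atpB was 4222, 3216, 3251, 3946, 3806, 4237 and 3795 in mixes 1 to 7 and 3637 with the reference mix (mean 3764 ± 387). The gene atpE followed it, with 3434 ± 306, a lowest signal of 2959 in mix 3 and 3010.2 in mix 2. These 2 arrays were also the lowest for atpA (2919 ± 212). The membrane subunit genes did not share that order. The signal of atpI was 162, 185, 133.2, 106, 125, 120.6 and 159.5 in mixes 1 to 7 and 133.0 with the reference mix (mean 141 ± 26.04), with mix 2 highest. The genes atpF and atpH had 1670.0 ± 177 and 1392 ± 98.2.

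The NDH complex held the gene with the widest range of the 43, ndhF, which encodes a subunit of the membrane arm. Its signal was 27.9, 43.6, 54.3, 17.9, 20.3, 43.4 and 40.4 in mixes 1 to 7 and 25.9 with the reference mix (mean 34.2 ± 13.0). The log2 ratio to the reference was 1.07 for mix 3 and -0.53 for mix 4, and the gene was also the dimmest of the 43. The other membrane arm genes had higher signals. The gene ndhA had 1368 ± 278, with 881 in mix 4 and 1695 in mix 1. The gene ndhD had 2073 ± 164, ndhE 678 ± 153 and ndhG 159 ± 15.2. The genes ndhE and ndhG were both lowest in mix 6.

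The 3 genes ndhC, ndhK and ndhJ form 1 unit. The signal of ndhC, a membrane arm gene, was 1994, 1568, 1561, 1344, 1341, 1529.5 and 1639.9 in mixes 1 to 7 and 1204 with the reference mix (mean 1523 ± 241). That of ndhK, which encodes a subunit of the peripheral arm, was 375, 576, 563.5, 664, 592, 548 and 598 in mixes 1 to 7 and 593 with the reference mix (mean 564 ± 83.8). In mix 1 these neighbours went opposite ways, with log2 ratios to the reference array of 0.73 for ndhC and -0.66 for ndhK. The other peripheral arm genes were ndhJ, at 1117 ± 79.3, ndhH, at 190.3 ± 35.0, and ndhI. The signal of ndhI was 2904, 2253, 2224, 2456, 2561, 2564 and 2702 in mixes 1 to 7 and 2544 with the reference mix (mean 2526 ± 223), lowest in mix 2 and mix 3. The large subunit gene of Rubisco, rbcL, had 933, 812, 697, 771, 803, 709 and 785 in mixes 1 to 7 and 770.2 with the reference mix (mean 785 ± 72.5). Mix 1 was 1.34-fold above mix 3, and the other arrays lay between them.

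The spread over the arrays differed by complex, and so did the signal level. The median SD of log2 signal was 0.24 for the cytochrome b6f genes, 0.23 for the NDH genes, 0.20 for photosystem II, 0.17 for photosystem I, 0.14 for the ATP synthase and 0.13 for rbcL. Without the array of mix 1 that of the NDH genes was 0.15 and that of rbcL 0.086. Over the 43 genes the median was 0.18. Among native probe sets with a mean signal of 116.4 or more, which include 40 of the 43 genes, the median was 0.17 for the genes and 0.12 for all, and 30 of the 40 lay above that value. The 26 other chloroplast-encoded genes had a median of 0.17. The median of the mean signals was 719 for cytochrome b6f, 897 for NDH and 1577 for photosystem II. It was 2092 for photosystem I and 2295 for the ATP synthase, and rbcL had 785. Apart from rbcL, complexes with lower signals thus had the wider spread. Over native probe sets the median SD was 0.29 at means of 13.1 to 42.4 and 0.17 from there to 116.4. The part of signal level in the differences between complexes was not tested. These are descriptions, since no array was repeated.

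Each mix was compared with the reference array to see which of these genes differed between arrays whose plant labels are the same. With 1 array a mix no test was possible, and a gene was counted as higher or lower when its log2 ratio was at least 0.32 in size, the limit drawn in the plot of complexes by mix. In mix 1, 11 of the 43 genes were higher, against a background of 7.66% of native probe sets at or above the median signal, and 6 were lower, against 7.38%. The higher ones were led by psbL, ndhC, psbJ and petL, with log2 ratios of 0.82, 0.73, 0.68 and 0.62, and the lower ones were psbB, ndhK, petN, ndhE, psbD and psaC. In mix 2, 12 were higher (background 7.17%) and 0 lower (4.77%), and in mix 3, 11 were higher (8.73%) and 0 lower (5.11%). Mixes 2 and 3 shared ndhF, ndhH, psbL, psbJ, psbT, ndhA, petL, ndhC and petG among the higher genes.

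In mix 4, 1 gene was higher, psbD with a log2 ratio of 0.41 (background 9.61%), and 5 were lower, namely ndhF, ndhE, ndhA, psbT and atpI (7.17%). In mix 5, 0 genes were higher (6.95%) and 1 was lower, ndhF (5.31%). In mix 6, 9 were higher (12.1%) and 6 lower (11.2%), the latter being psbE, psbB, psbN, ndhE, petD and psaC. In mix 7, 10 were higher (7.89%) and 0 lower (5.6%). Mixes 4 and 5 were thus those with the fewest genes counted as higher, and their arrays were, with the reference, the low arrays of psbL. Over the 7 mixes, 18 genes were counted in no mix, 12 as higher in at least 1 mix and lower in none, 5 as lower in at least 1 mix and higher in none, and 8 in both directions. Of native probe sets at or above the median signal, the shares for these 4 outcomes were 50.7%, 23%, 22.9% and 3.31%, and of the bright ones 76.9%, 8.39%, 14% and 0.714%.

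The bright probe sets give a further background, chosen after the values were seen because 35 of the 43 genes lie in it. There the shares counted as higher in mixes 1 to 7 were 4.55%, 2.19%, 2.23%, 0.624%, 0.312%, 3.97% and 2.19%. The shares counted as lower were 3.12%, 2.68%, 2.77%, 3.08%, 1.38%, 7.89% and 1.74%. The median log2 ratio of the 43 genes was 0.16 in mix 1, 0.028 in mix 2, 0.029 in mix 3, -0.013 in mix 4, 0.024 in mix 5, 0.032 in mix 6 and 0.17 in mix 7. Among the bright probe sets it ran from -0.053 in mix 3 to 0.0094 in mix 1, and over all native probe sets at or above the median signal from -0.0040 to 0.0035. All 7 comparisons share the 1 reference array. With each mix set against the average of all 7 remaining arrays, the genes counted as higher numbered 7, 4, 4, 2, 0, 3 and 2 in mixes 1 to 7 and those lower 6, 0, 1, 9, 7, 5 and 0, and the median turned below 0 in mixes 3, 5 and 6. The background shares counted as higher in this way were 2.95%, 2.55%, 3.12%, 5.91%, 3.35%, 6.9% and 2.9%, and of the bright probe sets 2.27%, 0.58%, 0.669%, 0.758%, 0.58%, 1.96% and 0.669%. Those counted as lower were 4.44%, 3.14%, 2.5%, 5.93%, 4.36%, 7.68% and 2.81%, and of the bright ones 0.58%, 0.669%, 0.803%, 2.94%, 1.43%, 4.42% and 0.491%. Scaling the arrays to a common median lowered every log2 ratio by 0.11 in mix 4 and 0.12 in mix 6. The median of the 43 genes was then -0.13 and -0.084, and that of the background -0.11 in both, with 0 and 5 genes higher and 7 and 8 lower. Of the background, between 4.13% and 7.14% were then higher and between 6.92% and 21.2% lower, depending on the mix.

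By complex, the median log2 ratio of the NDH genes was 0.26 in mix 2 and 0.23 in mix 3, with 5 and 4 of 10 genes counted as higher and 0 lower. Set against the average of the 7 remaining arrays, these medians were 0.13 and 0.15. The ATP synthase genes had -0.12 and -0.16 in the same mixes, with 1 and 0 of 6 counted as higher and 0 lower. After quantile normalization the ATP synthase median in mix 2 turned to 0.059 and that in mix 3 was -0.012. The brightest probe set of the array reached 3741 in mix 2, 3748 in mix 3 and 4606 to 5230.4 elsewhere, and its part in these values was not tested. In mix 1 the photosystem II genes had a median of 0.22, with 6 of 15 genes counted as higher and 2 lower, and rbcL had 0.28. After quantile normalization the photosystem II median was 0.093. In mix 7 all 6 cytochrome b6f genes were above the reference array, with a median of 0.21, and 1 of them, petL, was counted as higher, and the photosystem I genes had a median of 0.22. Above the reference array in mix 7 were 34 of all 43 genes and 22 of the 26 other chloroplast-encoded genes. The same held for 5709 of the 11352 background probe sets and 994 of the 2242 bright ones. In mixes 4 and 5 the medians of the complexes lay between -0.07 and 0.06. For the counts in mixes 1, 2, 3 and 7, the background shares counted as higher were 7.66%, 7.17%, 8.73% and 7.89%, and of the bright probe sets 4.55%, 2.19%, 2.23% and 2.19%. The shares counted as lower were 7.38%, 4.77%, 5.11% and 5.6%, and of the bright ones 3.12%, 2.68%, 2.77% and 1.74%. The differences between complexes were not tested.

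**Figure D2:**
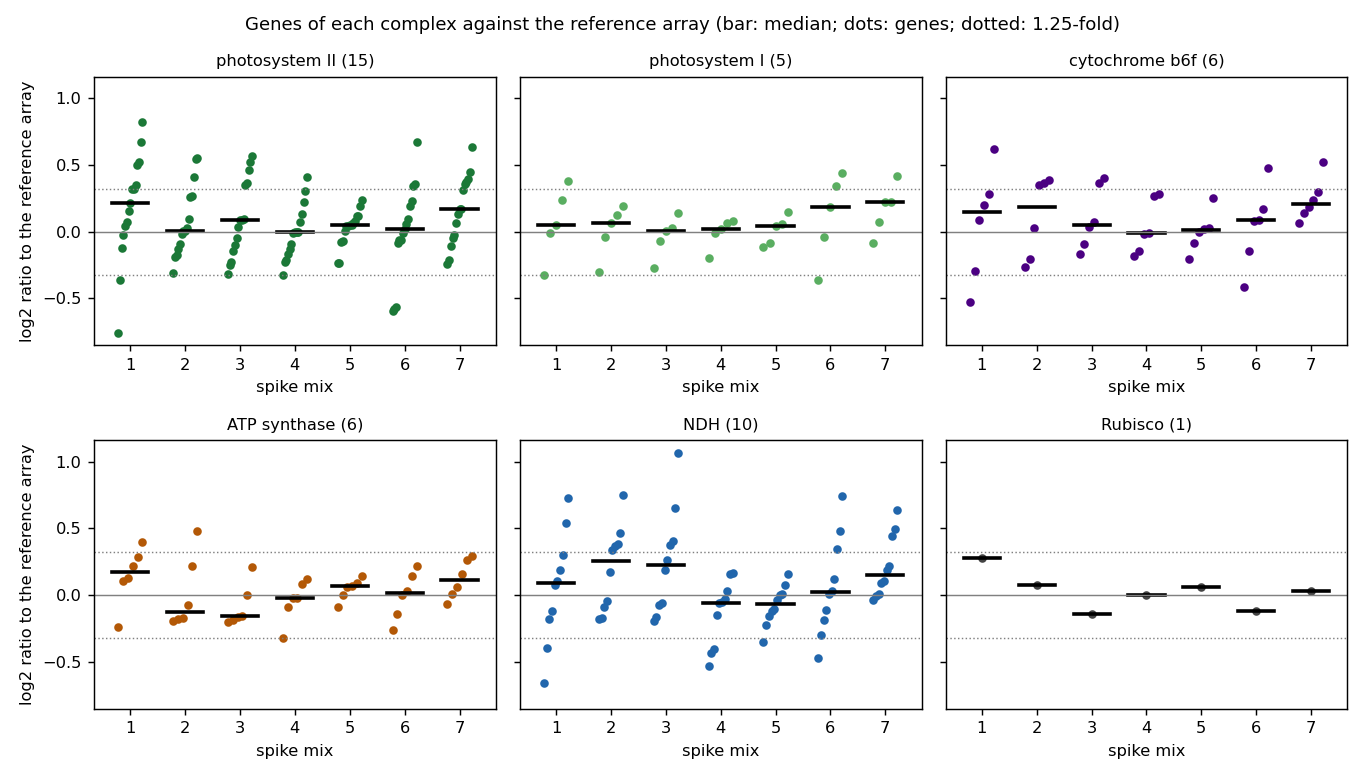
Log2 ratio of signal to the reference array for the genes of each complex (number of genes in brackets) in spike mixes 1 to 7, with dots for genes, black bars for medians and dotted lines at 0.32 in either direction, the limit of the counts. Genes of NDH and photosystem II fan out to both sides in mixes 1 and 6, and those of the ATP synthase lie mostly below 0 in mixes 2 and 3.

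The order of the arrays recurred between genes of different complexes. These orders were picked after the values were seen, as the most common ones, and are descriptions. In 13 of the 43 genes the 3 lowest arrays were those of mix 4, mix 5 and the reference, against a background of 6.09% of native probe sets at or above the median signal and 8.39% of the bright ones. They were ndhA, ndhC, ndhF, ndhH, petA, petG, petL, psaI, psbI, psbJ, psbL, psbT and psbZ. This order spans 4 complexes and includes 5 small subunits of photosystem II. Of the 26 other chloroplast-encoded genes, 9 had it too. In 10 genes the 2 lowest arrays were those of mix 2 and mix 3 (background 5.58%, and 15.2% of the bright ones), namely ndhD, ndhI, psbA, psbF, psbM, psaB, petB, atpA, atpB and atpE. Each of these 10 had a mean signal of at least 1816. Of the 26 other chloroplast-encoded genes, 1 had it. After quantile normalization 1 gene of the 43 had that order (background 4.61%, bright 6.07%), and 15 had the order with mix 4, mix 5 and the reference lowest (6.18% and 9.77%). Under scaling to a common array median these numbers were 8 (5.27% and 11.2%) and 10 (4.69% and 5.40%). In 11 genes the 3 highest arrays were those of mixes 1, 6 and 7 (background 2.34%, and 6.65% of the bright ones), as in 8 of the 26 other chloroplast-encoded genes. After quantile normalization 4 of the 43 had this order (1.81% and 2.85%). In 12 genes the 2 highest were those of mixes 1 and 7 (3.07% and 6.82%), as in 5 of the 26, and after quantile normalization 4 of the 43 had it (2.73% and 3.08%). Under scaling to a common array median, 17 of the 43 had it (4.62% and 8.92%). The order with mixes 1, 6 and 7 highest was then that of 8 genes (1.96% and 4.42%).

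**Figure D3:**
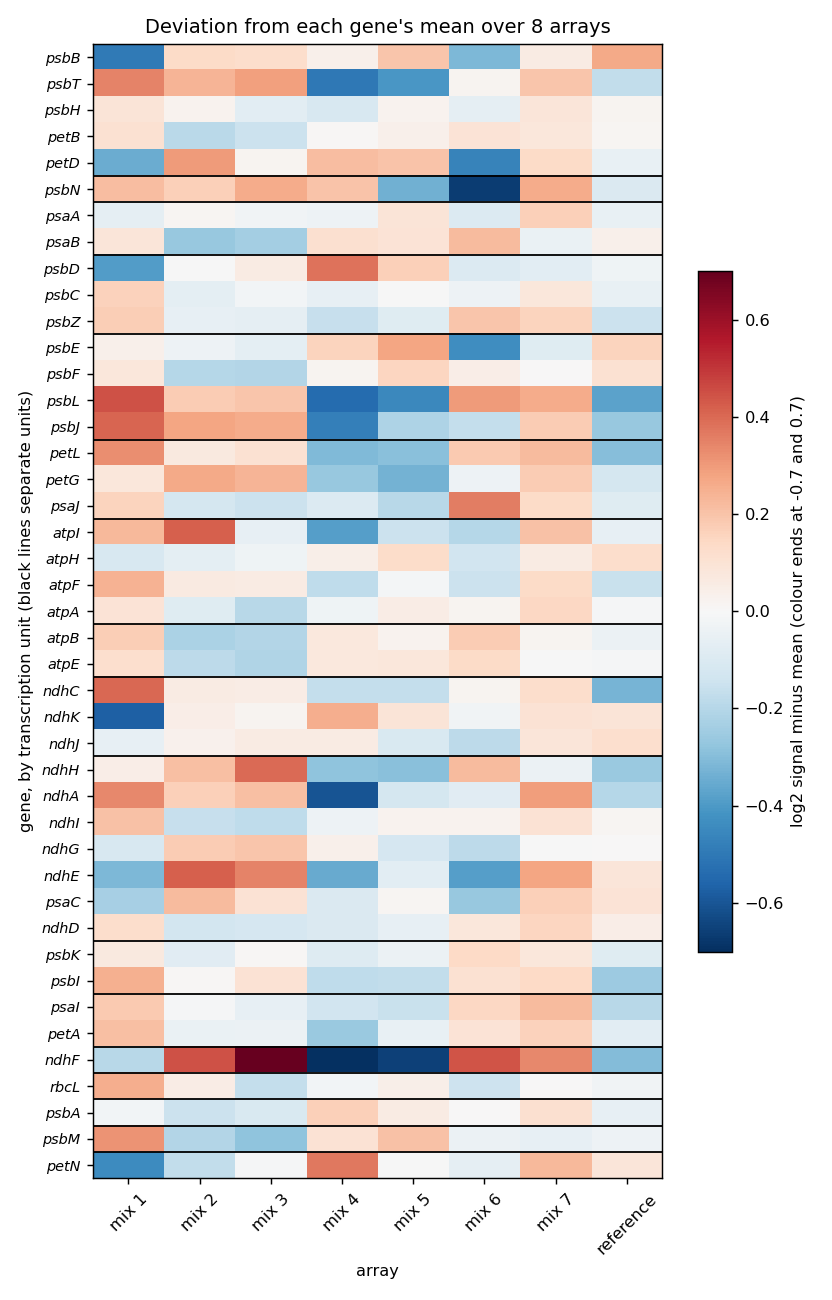
Deviation of log2 signal from each gene's own mean over the 8 arrays, with genes in rows by transcription unit and arrays in columns (red above, blue below the mean). The rows of psbL, psbJ, petL and psbT are blue in mix 4, mix 5 and the reference, psbB and ndhK are darkest blue in mix 1, and atpB and atpE have near-identical rows.

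In mixes 1 to 7 and the reference, the signal of the 25S ribosomal RNA control was 2198, 1774, 592, 495, 1190.5, 272, 494 and 847, and the members' median level, as log2 deviation from each gene's mean, was 0.11, 0.014, -0.0076, -0.058, -0.014, -0.025, 0.13 and -0.052. The 3'/5' signal ratio of the actin control, a measure of RNA integrity, was between 1.80 and 2.17, that of GAPDH between 1.03 and 1.24 and that of ubiquitin between 1.57 and 1.84. The part of these in the results was not tested.

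Neighbours in a transcription unit were compared to see whether genes that are transcribed together also varied together. The 26 pairs were of genes that follow each other in a unit among the 43. In 22 of them the genes are adjacent in the TAIR10.1 gene table. In the other 4, genes outside the pair lie between them, namely psbN between psbT and psbH, trnS between psbC and psbZ, trnW and trnP between petG and psaJ, and ycf4 and cemA between psaI and petA. Over the 8 arrays the Pearson r of their log2 signals had a median of 0.28 and ran from -0.79 to 0.97, with 16 pairs above 0 and 10 below. The 877 other pairs of the 43 genes had a median of 0.11 and ran from -0.94 to 0.99. The median of the 26 pairs was 0.14 without mix 1, 0.15 without mix 7 and 0.13 without the 2 farthest arrays, and that of the other pairs was 0.045 without mix 7. For the 22 adjacent pairs it was 0.22. In a two-sided exact permutation test over all pairings of the arrays, 9 pairs had an unadjusted p below 0.05. Among these, ndhI with ndhG and ndhC with ndhK had an r below 0. The 877 other pairs were not put through this test, so the counts have no share of other pairs beside them. After Benjamini-Hochberg adjustment over the 26 pairs, 2 remained below 0.05.

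One of these was atpB with atpE, whose coding regions overlap, with r = 0.97 (n = 8 arrays, exact permutation p = 0.00032, adjusted p = 0.0084) and Spearman rho = 0.95 (exact p = 0.0011, adjusted p = 0.015). Leaving out the 2 arrays farthest from the median of atpB gave r = 0.91. After quantile normalization r was -0.19, with an adjusted exact p of 0.74, and without the reference array the adjusted exact p was 0.057. The gene psaB, of another unit and complex, also had r = 0.97 with atpE over the 8 arrays. The other pair that passed the adjustment was ndhE with psaC, with r = 0.94 (n = 8 arrays, exact permutation p = 0.00094, adjusted p = 0.012) and rho = 0.95 (exact p = 0.0011, adjusted p = 0.015). Both had low signals in mixes 1, 4 and 6, and r was 0.90 without the 2 arrays farthest from the median of ndhE. The adjusted exact p of this pair was 0.093 without mix 2 and 0.067 without the reference array. A photosystem I gene thus varied with an NDH gene of the same unit, while the gene on its other side, ndhD, had r = -0.35 with psaC (exact p = 0.38, adjusted p = 0.56, n = 8 arrays).

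The pair of psaI and petA, with ycf4 and cemA between them, had r = 0.86 (n = 8 arrays, exact permutation p = 0.0066, adjusted p = 0.057), rho = 0.88 (exact p = 0.0072, adjusted p = 0.063) and r = 0.68 without the 2 farthest arrays. That of psbL and psbJ had r = 0.84 (n = 8 arrays, exact p = 0.011, adjusted p = 0.072). Neither passed the adjustment. With arrays scaled to a common median both did, at adjusted exact p of 0.0084 and 0.042. The median r of the pairs that are not neighbours also rose under that scaling, from 0.11 to 0.22. After quantile normalization neither pair passed, with r of 0.74 and 0.83 and an adjusted exact p of 0.12 for each. In the psbE unit, psbF and psbL, which lie next to each other, had r = -0.39 (n = 8 arrays, exact p = 0.33, adjusted p = 0.54). The gene psbE was lowest in mix 6, where psbL was high.

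The pairs with the lowest r were ndhI with ndhG (r = -0.79, exact p = 0.019, adjusted p = 0.095, n = 8 arrays), ndhC with ndhK (r = -0.79, exact p = 0.027, adjusted p = 0.095) and psbD with psbC (r = -0.70, exact p = 0.060, adjusted p = 0.14). Their rho values were -0.81 (exact p = 0.022, adjusted p = 0.11), -0.43 (exact p = 0.30, adjusted p = 0.42) and -0.48 (exact p = 0.24, adjusted p = 0.42), and without the 2 farthest arrays r was -0.70, -0.58 and -0.080. With each array centred on the median of the 43 genes, r was -0.31, -0.68 and 0.32. None of these passed the adjusted threshold. In the psbB unit, psbB and psbT had r = -0.40 (n = 8 arrays, exact p = 0.33, adjusted p = 0.54), with psbB lowest in mix 1, where psbT was highest.

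**Figure D4:**
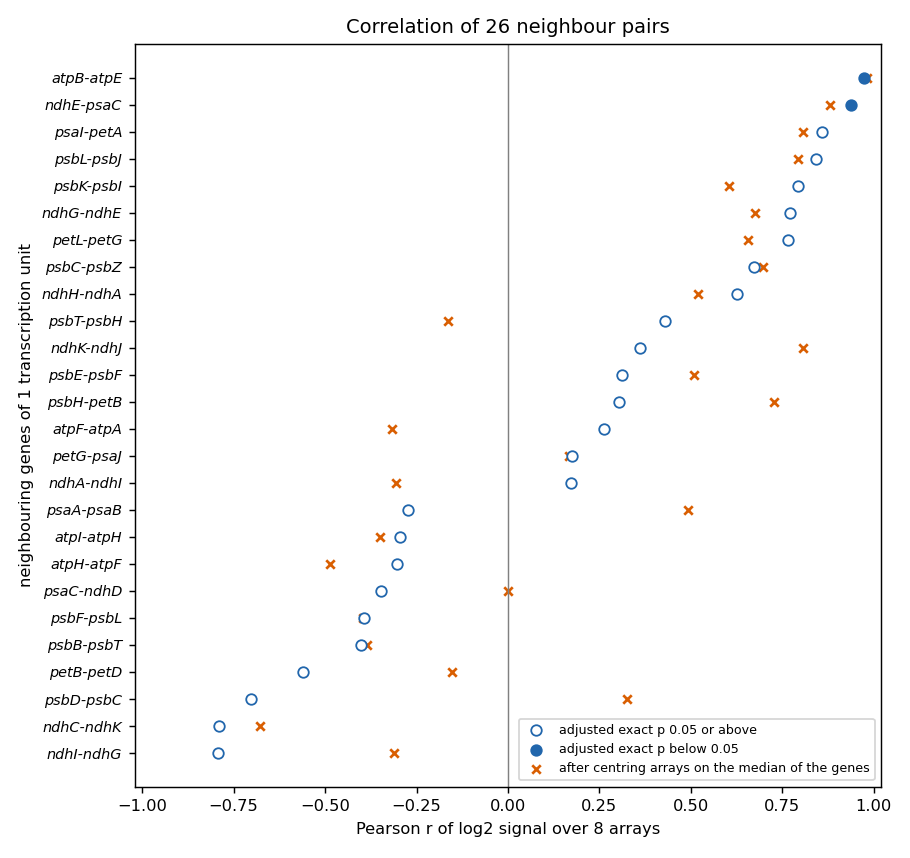
Pearson r of log2 signal over the 8 arrays for the 26 neighbour pairs, as circles (filled for an adjusted exact p below 0.05), and the same after centring each array on the median of the 43 genes, as crosses. The filled circles are atpB-atpE and ndhE-psaC, and r runs from -0.79 to 0.97.

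**Figure D5:**
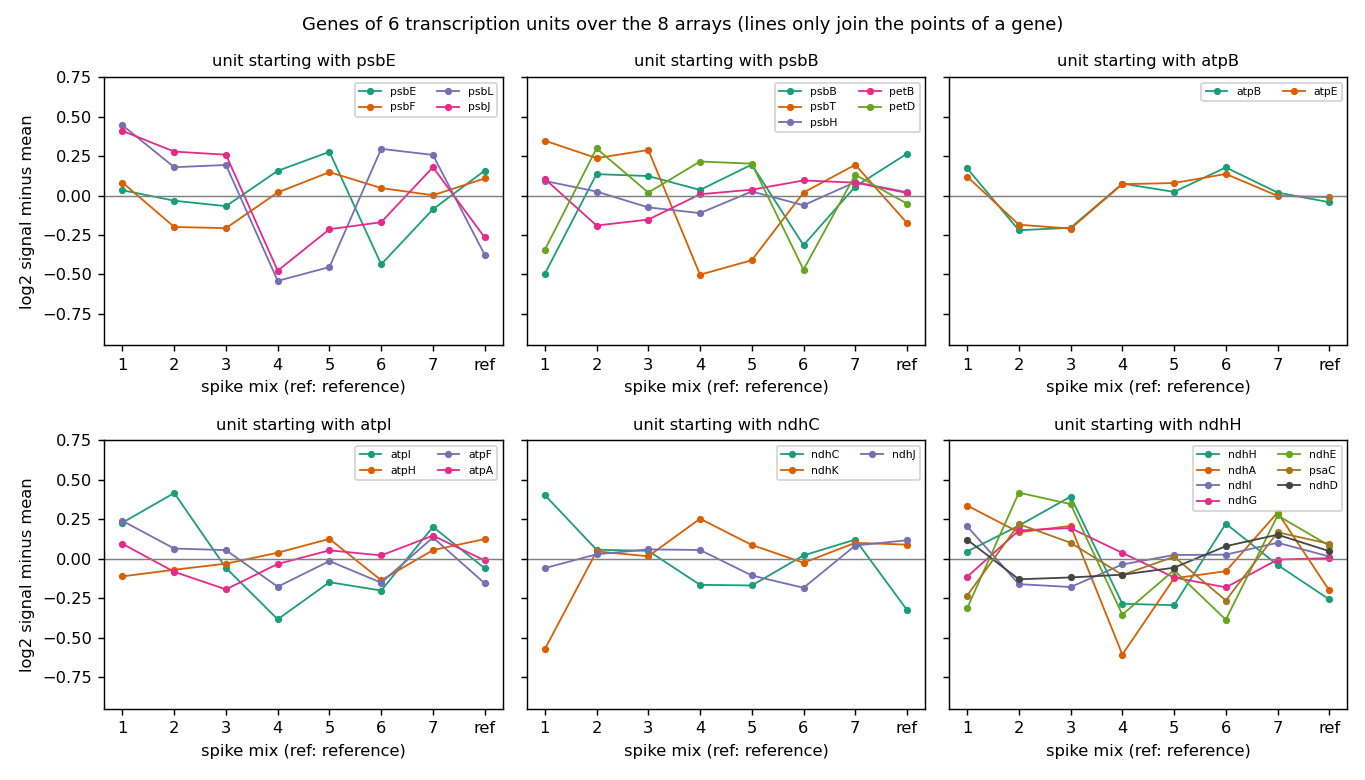
Deviation of log2 signal from each gene's mean (vertical axis) over the 8 arrays (horizontal axis) for the genes of 6 transcription units, with lines that only join the points of a gene. The lines of atpB and atpE lie on each other, ndhC and ndhK part in mix 1, and psbL and psbJ fall in mix 4, where psbE and psbF do not.

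Some genes of different units had profiles more alike than most neighbours. The highest r of all pairs was that of petL and psbL, at 0.99 over the 8 arrays, followed by petL and psbI at 0.98. Pairs of different units within 1 complex, 149 in number, had a median r of 0.11, and all 56 pairs within 1 unit had 0.13. These r values are descriptions over 8 arrays that share the scaling of the array.

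Among the other genes of the plastid, the 26 that encode ribosomal proteins, RNA polymerase subunits and other functions had medians of 0.23, 0.11, 0.12, -0.081, 0.014, 0.093 and 0.20 in mixes 1 to 7. Those counted as higher numbered 13, 5, 5, 0, 1, 5 and 6, and those counted as lower 3, 2, 1, 3, 0, 3 and 0. The brightest were ccsA, a gene of cytochrome c maturation, at 2509 ± 261 (SD, n = 8 arrays), and clpP, a protease gene, at 2364 ± 245. Of the nuclear genes listed by symbol for the same complexes, 15 were measured, with medians of 0.075, -0.079, -0.097, -0.023, -0.010, 0.11 and 0.070. Those counted as higher numbered 3, 2, 1, 0, 0, 1 and 1, and those counted as lower 1, 0, 4, 2, 2, 3 and 0. The brightest were PSAE-1 of photosystem I, at 3308 ± 479, and RCA, which encodes Rubisco activase, at 3218 ± 381. The list also holds CRR21, CRR22, CRR28, CRR41 and CRR42. Neither these nor RCA are claimed to be subunits of the complexes. The mean signals of CRR22, CRR28 and ATPC2 lay below the table's median of 42.5, so the medians and counts of the list include dim probe sets. Of a list of nuclear genes for plastid RNA made by symbol, only HCF101 was measured. Its symbol start alone placed it there, and no role in plastid RNA is claimed for it. It had 483 ± 36.4 and was counted in no mix. For the counts of these lists in mixes 1 to 7, the background shares counted as higher were 7.66%, 7.17%, 8.73%, 9.61%, 6.95%, 12.1% and 7.89%. Those counted as lower were 7.38%, 4.77%, 5.11%, 7.17%, 5.31%, 11.2% and 5.6%.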

How the data were processed

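The authors deposited 1 intensity per array for 22810 probe sets on 8 arrays. The submitters' processing notes name MAS5, and the sources used here give no version. The values were used as deposited. Genes were named through the platform's table and the TAIR10.1 gene table: 13513 probe sets had 1 gene, 503 several and 8794 are unnamed here, and 13436 of those with 1 gene matched. Transcription units followed textbook gene order, with genes outside the 43 skipped. The genes and lists were chosen with earlier results of these data known.

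Values below the 25th percentile, 12.9, were set to it before log2. Background shares were taken over 11352 native probe sets whose mean signal reached the table's median, 42.5, and over the 2242 with a mean of 292 or more (bright). Every gene is named with its mean and SD. Values on each array are given for the genes with the highest mean, lowest mean and widest spread in a complex and with the 3 highest and 3 lowest ratios, by a rule written with the tests; further values, such as some of psbT, psbF and petN, and the pairs beyond the 3 highest and 3 lowest r, were chosen after they were seen. Neighbour pairs were tested by exact permutation with Benjamini-Hochberg adjustment, and the steps were tested on simulated data. No sequences were used here. The number of arrays limits the precision. Alternatives were other scalings, floors, folds and comparators, and leaving out arrays. The tools were matplotlib 3.10.9, scipy 1.17.1, pandas 2.3.3, numpy 2.4.6 and Python 3.11.15.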

Additional observations from a re-analysis of the deposited data

Results flagged for a closer look

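Of the 43 genes, ndhK had 1 array far from the other 7. Its signal of 375 in mix 1 was followed by 548 to 664 on the other arrays, and the gap to the nearest array made up 0.663 of the whole log2 range. Chance alone would mark about 1 in 20 genes in this way.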

How the results depend on the processing

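No paired analysis was possible because each mix had 1 array and the labels give only replicate number 1. Scaling to a common median moved the median log2 ratio of the 43 genes to -0.043, -0.13, -0.055 and -0.084 in mixes 3 to 6. The background median was then -0.069, -0.11, -0.083 and -0.11 in the same mixes. Quantile normalization moved the median of the 43 genes to 0.049 in mix 1 and -0.064 in mix 6. In mixes 1 to 7 the genes counted as higher numbered 4, 1, 2, 0, 0, 2 and 2 at 1.5-fold and 0, 0, 1, 0, 0, 0 and 0 at 2-fold, and those lower 2, 0, 0, 0, 0, 1 and 0 at 1.5-fold and 0 in each mix at 2-fold. Against the mean of the other 7 arrays they were 7, 4, 4, 2, 0, 3 and 2 higher and 6, 0, 1, 9, 7, 5 and 0 lower. After quantile normalization they were 7, 11, 11, 1, 0, 4 and 11 higher and 6, 0, 0, 4, 1, 6 and 0 lower, and with a common median 10, 9, 7, 0, 0, 5 and 8 higher and 6, 2, 3, 7, 1, 8 and 0 lower. Over the mixes, the share of native probe sets at or above the median signal counted as higher ran from 1.19% to 3.01% at 1.5-fold, 0.088% to 0.30% at 2-fold, 6.00% to 10.9% after quantile normalization and 4.13% to 7.14% with a common median. The share counted as lower ran from 0.52% to 2.32%, 0% to 0.26%, 5.13% to 11.99% and 6.92% to 21.2%. With a common median it was 15.2% in mix 4 and 21.2% in mix 6. A floor at the 40th percentile left 4 lower in mix 4 and 0 in mix 5. The gene no longer counted was ndhF, which was also the 1 gene counted as higher at 2-fold in mix 3. Its mean signal of 34.2 lay below the table's median of 42.5 and so outside both backgrounds. With a common median the background median was -0.11 in mixes 4 and 6 and -0.083 in mix 5. The medians of the complexes in mixes 4 and 6 were then -0.13 and -0.098 for the ATP synthase, -0.17 and -0.094 for NDH, -0.12 and -0.031 for cytochrome b6f, -0.092 and 0.070 for photosystem I and -0.12 and -0.099 for photosystem II, which had -0.029 in mix 5. After quantile normalization they were 0.047, 0.059, -0.012 and -0.076 for the ATP synthase in mixes 1, 2, 3 and 6, -0.098 and 0.0056 for photosystem I in mixes 1 and 6, and 0.093 for photosystem II in mix 1. Against the mean of the other 7 arrays they were 0.13 for NDH and 0.011 for cytochrome b6f in mix 2, 0.0079 for photosystem II in mix 3, and -0.14 for cytochrome b6f and -0.11 for photosystem I in mix 4. Leaving out 1 array at a time gave a median SD of 0.15 to 0.25 for NDH and 0.086 to 0.14 for rbcL. The median r of neighbours was 0.39 with a common median, 0.41 with centred arrays, 0.42 as Spearman's rho, 0.13 without the 2 farthest arrays and 0.14 to 0.40 without 1 array, and that of other pairs was 0.22 with a common median and 0.045 to 0.13 without 1 array. Pairs with an adjusted exact p below 0.05 numbered 4 with a common median, 1 after quantile normalization, 0 without the 2 farthest arrays, where 6 arrays remain, and 0 to 4 without 1 array. The r of atpB and atpE was -0.19 after quantile normalization. The causes were not tested.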

Other observations

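The probe set annotated to both copies of ndhB had signals of 77.6, 85.9, 87.2, 91.4, 82.6, 127 and 98.9 in mixes 1 to 7 and 68.8 with the reference mix. Mix 6 was highest and the reference lowest. Its mean signal was 89.9 ± 17.5 (SD, n = 8 arrays).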
